A study of Mus musculus with 16 samples.

Results

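The plaque-associated microglia genes are a list of 34 genes, most of them known to rise in microglia that touch amyloid plaques, with Cd68, Aif1 and Spi1, general genes of the microglial lineage, counted among the 34. They were listed by name, with earlier results of these data known, and each had to have 10 or more read pairs in at least 4 of the 16 libraries. All 34 of 34 listed genes met that rule, as did 16723 of the 47593 genes in the whole table. The libraries are poly(A) RNA-seq of the cortex of heterozygous 5xFAD mice on a hybrid C57BL/6 and SJL background. These mice carry human transgenes with familial Alzheimer's mutations, driven in neurons by the Thy-1 promoter, so that plaques form in every group. There is no group without the transgenes, and therefore no measure of how far any member was raised by plaques. Between 2 and 5 months of age the mice ate chow with microencapsulated rapamycin, an inhibitor of the kinase mTOR, or the same chow with the empty carrier (vehicle). The 4 groups of 4 libraries are female vehicle (FC), female rapamycin (FR), male vehicle (MC) and male rapamycin (MR), which the submitters' design text counts as biological replicates. The study's own text also speaks of pooled cortical samples, so whether a library is a single mouse was not settled here.

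In the brain, microglia are the resident macrophages. When they meet fibrillar amyloid, the lipid-sensing receptor TREM2 signals through its adaptor TYROBP, and the cells lower their homeostatic genes (P2ry12, Tmem119) and raise a shared program of phagocytic receptors, lysosomal proteases, lipid-handling genes and chemokines. The program is best known from single cells sorted from mice with plaques, where Cst7, Clec7a and Itgax mark it most particularly. In whole cortex such cells are a small part of the tissue, and many members (Ctsb, Ctsd, Fth1, Timp2, Cd9, Cd63, Ank, Axl) are also made by neurons, astrocytes, oligodendrocytes or vessels. Fewer microglia and less RNA per microglial cell cannot be told apart in bulk tissue.

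Some features of the libraries touch every result. Counted read pairs ranged from 16393501 to 20593089 per library (median 17656717), so that a member at a few CPM (read pairs relative to the library total, scaled with TMM factors) rests on few read pairs. In the library labelled male rapamycin 4, Xist was counted 9935 times and the Y-linked genes checked 0 times, whereas the other 7 male libraries had at most 17 read pairs for Xist and at least 1915 for the Y-linked genes. It is kept under its label, and the main results that it moves are also given without it. Male rapamycin 2 and 3 stood apart in the microglial genes themselves, as described below, and several results are also given without this pair, an alternative chosen after seeing the data. Batch 2 of the labels held 5 libraries, namely the doubtful one, number 4 of both vehicle groups, and female rapamycin 4 and 5. Female rapamycin 1 and 2 and male rapamycin 2 had the largest mitochondrially encoded shares of read pairs (6.88%, 6.98% and 6.99%, against 2.64% to 5.47% in the other libraries) and the lowest exon length slopes, the slope of a gene's log2 CPM deviation on log2 exon length (-0.12, -0.13 and -0.12, against -0.03 to 0.10).

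Per kilobase of exon, the members spanned a wide range. Fth1, the iron-storing ferritin heavy chain, had a median of 2015 CPM per kb over the 16 libraries, followed by the lysosomal proteases Ctsd (310 CPM per kb) and Ctsb (162 CPM per kb). The receptors were far lower, with 45.0 CPM per kb for Tyrobp, 9.57 for Trem2, 3.60 for Clec7a and 1.52 for Itgax, the integrin alpha X chain. The lowest were Gpnmb (0.553 CPM per kb), a glycoprotein of lysosomes, and Lgals3 (0.460 CPM per kb), the lectin galectin-3. Counts ran from 1 to 40 read pairs for Lgals3 and from 2 to 40 for the chemokine gene Ccl4, so both are imprecise.

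The members varied more between libraries than most genes did. The standard deviation (SD) of log2 CPM over the 16 libraries had a median of 0.46 over the 34 members, against 0.31 over all 16553 genes tested and 0.29 over the 15194 of these that lie in the members' range of mean level. It was largest for Clec7a (SD 1.07), Lgals3 (0.94), Cst7 (0.93) and Ccl4 (0.89), and smallest for Ank, a phosphate transporter (0.12), and Ctsb (0.22). Between the lowest and the highest library Clec7a differed 17-fold, Itgax 10.3-fold and Cst7 9.03-fold, while Trem2 differed 4.67-fold and Ank 1.33-fold.

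The same few libraries held the extremes, as the colours by gene and library show. Female vehicle 2 was the highest library for 18 of the 34 members and above the member's own median for 33. Male rapamycin 3 was the lowest for 10 and male rapamycin 2 for 9, and each of these libraries was below the member's own median for 31 of 34. Female rapamycin 4 was the lowest for 6, and in batch 2 female rapamycin 4 and 5 and male vehicle 4 lay below the own median for 29, 27 and 27 members. The library labelled male rapamycin 4 lay above it for 26. A library's position was thus not set by its diet alone: of the 8 rapamycin libraries, female rapamycin 1 and 2 and the library labelled male rapamycin 4 had 24, 29 and 26 members above their own median.

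**Figure D1:**
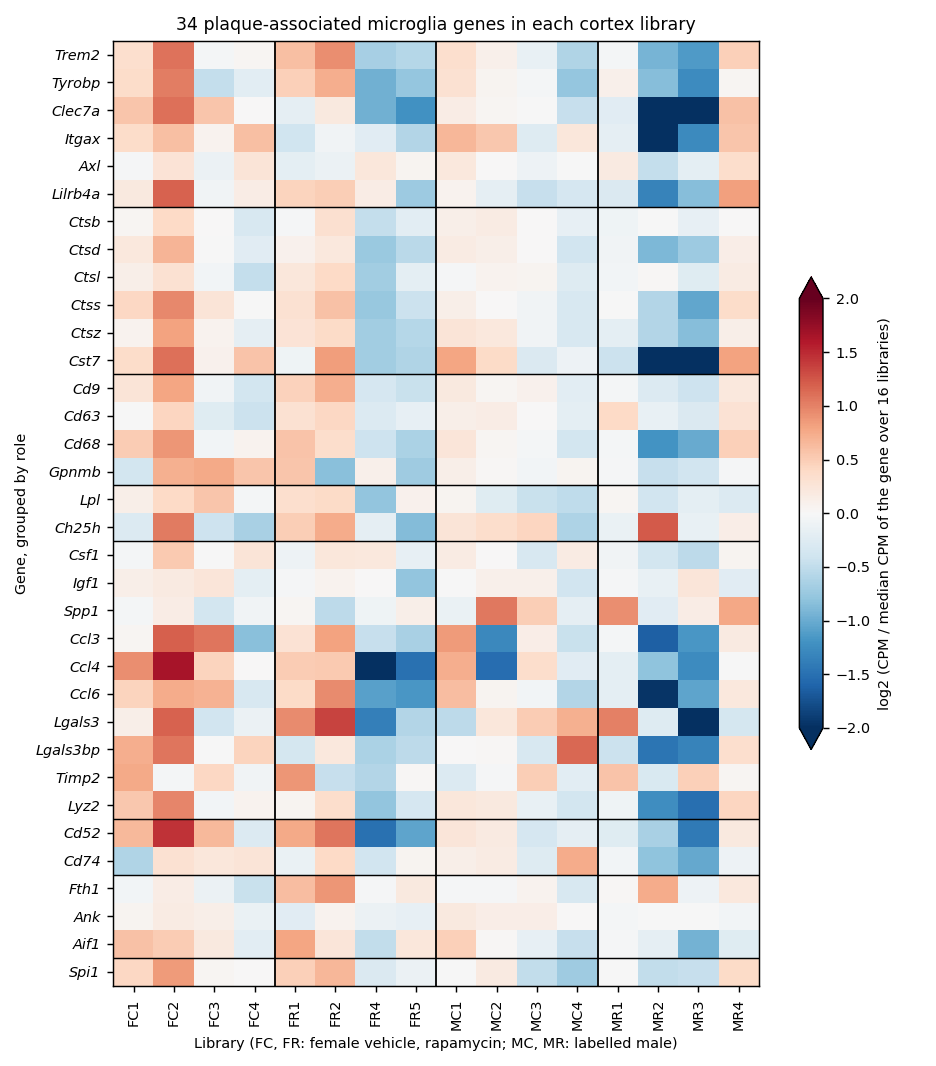
Level of each of the 34 members (rows, grouped by role) in each of the 16 libraries (columns), as log2 of CPM over the gene's median CPM, with colours capped at 2 in either direction. Female vehicle 2 was above the gene's median for 33 members, and male rapamycin 2 and 3 were below it for 31 each.

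Where the sequence before the start of a member's gene was given, 3 short motifs were looked for in the 250 bases upstream: GAGGAAG, the core bound by PU.1, CACGTG, an E-box that is the centre of the lysosomal CLEAR element, and TGANTCA, the AP-1 site. RefSeq promoters (GRCm38.p6) were matched for 26 of the 34 members, and both strands were searched. GAGGAAG was found for 5 of 26 members, CACGTG for 2 and TGANTCA for 4. These members had 29 promoters, of which 17.2% held GAGGAAG, 6.9% CACGTG and 13.8% TGANTCA. Of all 32851 promoters, 10.6%, 6.02% and 6.75% did. Trem2, Spp1, Axl, Igf1 and Cd63 held GAGGAAG, Ctsd and Ctsl held CACGTG, and Trem2, Itgax, Cd68 and Igf1 held TGANTCA. These are descriptions of letters in a window and not of binding. The upstream bases of Trem2 and of the 3 genes of the core index are printed because these genes carry the results on joint variation between libraries described further on. They lie on GRCm38.p6 at chr17:48346151-48346400 on the plus strand (Trem2), chr6:129472780-129473029 on the minus strand (Clec7a), chr2:150570165-150570414 on the plus strand (Cst7) and chr7:128129300-128129549 on the plus strand (Itgax), and are written 5′ to 3′ on the strand of the gene, in lower case with matches to the motifs in capitals. Trem2 holds both GAGGAAG, on the opposite strand, and TGANTCA, the Itgax window holds TGANTCA, and those of Clec7a and Cst7 hold none of the 3.
Trem2: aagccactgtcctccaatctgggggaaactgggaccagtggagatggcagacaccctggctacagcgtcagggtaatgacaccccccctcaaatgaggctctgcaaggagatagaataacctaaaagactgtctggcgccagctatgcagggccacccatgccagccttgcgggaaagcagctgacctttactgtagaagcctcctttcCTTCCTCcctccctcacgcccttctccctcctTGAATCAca
Clec7a: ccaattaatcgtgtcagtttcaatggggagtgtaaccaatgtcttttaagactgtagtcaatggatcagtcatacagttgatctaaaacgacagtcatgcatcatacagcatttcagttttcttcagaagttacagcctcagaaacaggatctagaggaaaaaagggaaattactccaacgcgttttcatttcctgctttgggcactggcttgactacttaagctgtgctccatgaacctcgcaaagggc
Cst7: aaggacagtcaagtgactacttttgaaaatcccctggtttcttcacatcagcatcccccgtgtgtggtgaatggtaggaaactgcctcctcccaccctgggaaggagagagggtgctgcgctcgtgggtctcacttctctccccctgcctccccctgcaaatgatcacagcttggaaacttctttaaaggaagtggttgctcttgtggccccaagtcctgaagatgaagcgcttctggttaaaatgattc
Itgax: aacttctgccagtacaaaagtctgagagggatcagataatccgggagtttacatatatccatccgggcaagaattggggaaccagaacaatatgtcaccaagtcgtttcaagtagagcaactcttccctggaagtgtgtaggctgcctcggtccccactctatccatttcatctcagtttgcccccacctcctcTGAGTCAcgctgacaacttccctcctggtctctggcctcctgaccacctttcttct

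The receptors and adaptors are the sensing end of the program. Trem2 was at 59.8, 100.6, 45.9 and 48.6 CPM in female vehicle 1, 2, 3 and 4, and at 71.9, 90.1, 29.8 and 32.0 CPM in female rapamycin 1, 2, 4 and 5. It was at 59.9, 50.5, 42.8 and 31.1 CPM in male vehicle 1 to 4, and at 46.1, 24.7, 21.5 and 66.2 CPM in the male rapamycin libraries, the last being the doubtful library. Diets overlapped in both sexes, and the rapamycin libraries split into high and low ones, the low ones being both female libraries of batch 2 and male rapamycin 2 and 3. Over both sexes the log2 fold change of Trem2, rapamycin against vehicle, was -0.14 (SE 0.26, adjusted p = 0.762). Without the library labelled male rapamycin 4 it was -0.39 (SE 0.20, adjusted p = 0.213), and without male rapamycin 2 and 3 it was 0.18 (SE 0.23, adjusted p = 0.669). Its adaptor Tyrobp had the same highest and lowest libraries, at 60.8 CPM in female vehicle 2 and 12.6 CPM in male rapamycin 3, with means of 32.7 ± 13.4 CPM with vehicle and 27.1 ± 13.6 CPM with rapamycin (SD, n = 8) and a log2 fold change of -0.18 (SE 0.25, adjusted p = 0.658).

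Clec7a, which encodes the beta-glucan receptor dectin-1, was at 13.97, 20.5, 13.98 and 9.56 CPM in female vehicle mice and at 8.37, 10.9, 4.87 and 4.11 CPM in female rapamycin mice. In male vehicle mice it was at 10.5, 9.76, 9.45 and 6.93 CPM, and in the male rapamycin libraries at 8.13, 1.72, 1.21 and 14.3 CPM. Male rapamycin 2 and 3 were the lowest of all, at no more than 1.72 CPM where every other library had at least 4.11 CPM, and the doubtful library was the highest of its labelled group. The log2 fold change over both sexes was -0.78 (SE 0.38, adjusted p = 0.179). Itgax was at 9.38, 11.1, 7.67 and 11.1 CPM in female vehicle mice and at 5.51, 6.91, 6.25 and 4.83 CPM in female rapamycin mice, and these groups did not overlap. In male vehicle mice Itgax was at 11.6, 10.6, 6.11 and 8.56 CPM, and in the male rapamycin libraries at 6.41, 1.13, 3.02 and 10.7 CPM. Its log2 fold change over both sexes, -0.84 (SE 0.28), had an adjusted p of 0.0524 in edgeR's quasi-likelihood test and of 0.013 in DESeq2. Axl, a receptor kinase for dying cells, and Lilrb4a, an inhibitory receptor, had log2 fold changes of -0.11 and -0.14, neither called. Itgax in females and Ank in males were the members whose diets did not overlap, both lower with rapamycin, or 1 of 34 in each sex, against 5.78% of all genes in females and 6.13% in males.

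The cathepsins degrade proteins in lysosomes, and Cst7 encodes cystatin F, their inhibitor. Cst7 was at 19.8, 33.2, 16.3 and 22.8 CPM in female vehicle mice and at 14.5, 27.6, 9.51 and 10.1 CPM in female rapamycin mice. In males it was at 26.5, 20.02, 12.6 and 14.4 CPM with vehicle and at 11.4, 3.68, 3.74 and 26.8 CPM in the rapamycin libraries. The diets overlapped in both sexes, and the log2 fold change was -0.65 (SE 0.35, adjusted p = 0.224). Of the 5 cathepsins, Ctsd (-0.31), Ctsz (-0.29), Ctss (-0.25) and Ctsb (-0.07) had negative log2 fold changes and Ctsl a positive one (0.05), and none was called. Counting left out read pairs that touch several genes. In GENCODE vM21 parts of the exons of Ctsd (34.4%), Ctsl (26.8%), Ctsb (12.8%) and also Lilrb4a (35.9%) are shared with other genes. The exons counted were not the same (for Ctsl 1971 bases, against 6489 in vM21). These shares are therefore only a rough guide, and the counts are uncertain.

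Among the lysosomal and tetraspanin membrane proteins, Cd68, the macrosialin of phagocyte lysosomes, was at 32.0, 41.3, 21.7 and 23.7 CPM in female vehicle mice and at 33.3, 28.7, 16.8 and 14.5 CPM in female rapamycin mice. In male vehicle mice it was at 26.7, 23.1, 21.9 and 17.4 CPM, and in the male rapamycin libraries at 21.9, 9.84, 11.2 and 31.2 CPM. The log2 fold change of Cd68 was -0.27 (SE 0.23, adjusted p = 0.455), with overlap in both sexes, and -0.48 (SE 0.18, adjusted p = 0.0856) without the library labelled male rapamycin 4. Cd9, Cd63 and Gpnmb had log2 fold changes of -0.03, 0.14 and -0.41, none called. The lipid genes Lpl, a lipoprotein lipase, and Ch25h, which makes 25-hydroxycholesterol, had values of -0.02 and 0.26, also not called.

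Of the 10 genes of secreted factors, 1 was called. Lgals3bp, which encodes a glycoprotein that binds galectin-3, was at 65.4, 83.0, 39.4 and 54.0 CPM in female vehicle mice and at 30.8, 45.7, 25.4 and 27.4 CPM in female rapamycin mice. In males it was at 39.6, 40.3, 31.5 and 87.5 CPM with vehicle and at 29.3, 14.3, 15.6 and 49.7 CPM in the rapamycin libraries. In each sex 1 rapamycin library reached into the vehicle range, and male vehicle 4 and male rapamycin 2 were the highest and lowest of all. Lgals3bp was 0.526-fold with rapamycin (log2 fold change -0.93, SE 0.24, adjusted p = 0.0222), a fall that passed the study's threshold of 1.5-fold. The call was lost without male vehicle 4 (adjusted p = 0.0684), the library with by far the most choroid plexus transcripts (8 marker genes summing to 1961 CPM, against 13.7 to 330 CPM elsewhere), and without female rapamycin 1 (adjusted p = 0.0506). It was also lost without male rapamycin 2 and 3 (log2 fold change -0.70, adjusted p = 0.0737) and was kept in batch 1 alone (-0.82, adjusted p = 0.0429). The part of choroid plexus in the Lgals3bp level of male vehicle 4 was not tested.

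The other secreted factors were not called. The chemokine gene Ccl4 had a log2 fold change of -0.75 (SE 0.39), Lyz2, which encodes lysozyme, of -0.45 (SE 0.25), Ccl6 of -0.38, Ccl3 of -0.35 and Csf1, a growth factor of microglia, of -0.20 (SE 0.11). Lgals3 (-0.12), Igf1 (-0.07), Spp1 (0.03), which encodes osteopontin, and Timp2 (0.04), a metalloprotease inhibitor, lay closer to 0. Ccl3 and Ccl4 each have near relatives in the genome, and read pairs that match both places are not counted. On the cell surface, Cd74, the invariant chain of MHC class II, had a log2 fold change of -0.39 (SE 0.19) and Cd52 one of -0.39 (SE 0.30).

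Fth1 was the other member called and the only 1 of the 34 called higher. It was at 1679, 1930, 1603 and 1285 CPM in female vehicle mice and at 2688, 3216, 1720 and 1987 CPM in female rapamycin mice. In males it was at 1715, 1718, 1823 and 1393 CPM with vehicle and at 1771, 2916, 1629 and 2014 CPM in the rapamycin libraries. Female rapamycin 1 and 2 and male rapamycin 2 were far above the rest, and the other 5 rapamycin libraries lay within 1629 to 2014 CPM, where the vehicle libraries spanned 1285 to 1930 CPM. The log2 fold change was 0.49 (SE 0.12, adjusted p = 0.0186), or 1.40-fold, which is under the study's 1.5-fold threshold. Fth1 kept an adjusted p under 0.05 in all 16 fits that left out 1 library. The 3 high libraries are those with the largest mitochondrial shares and the lowest exon length slopes, as the plot of Fth1 against both measures shows, and the Fth1 exons counted span 866 bases. With the exon length slope as a term the log2 fold change was -0.02 (SE 0.10, adjusted p = 0.991), and with the mitochondrial share as a term 0.14 (SE 0.15, adjusted p = 0.808). Both of these fits called 0% of all genes, so every gene lost its call there. The Fth1 estimate itself shrank in both fits. That of Lgals3bp, the other called member, was -1.40 (SE 0.39) with the exon length slope and -1.07 (SE 0.41) with the mitochondrial share. The cause was not tested. Fth1 has many processed copies in the genome, and its counts are uncertain for that reason too. Of the other cytosolic members, Ank had a log2 fold change of -0.13 (SE 0.06, adjusted p = 0.134) and Aif1 one of -0.11 (SE 0.17).

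**Figure D2:**
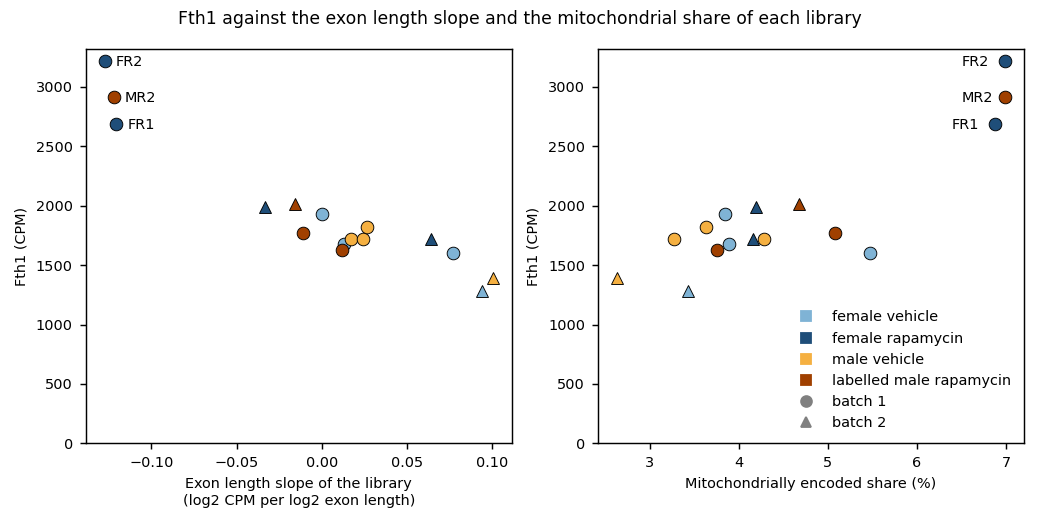
Fth1 level (CPM) of each library against the library's exon length slope (left) and its mitochondrially encoded share of read pairs (right), coloured by group and shaped by batch. Female rapamycin 1 and 2 and male rapamycin 2, at 2688 to 3216 CPM, have the lowest slopes and the largest shares.

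Over both sexes, then, 2 of the 34 members were called (5.88%), 1 higher and 1 lower, where 2205 of all 16553 genes were called with the same test (13.3%, of which 6.46% higher and 6.86% lower) and 2.26% of genes were also past 1.5-fold. The share of members called was below that of genes at large. The members nevertheless leaned one way: 27 of 34 had a negative log2 fold change, with a median of -0.16 against 0.02 over all genes. The 6 receptors and adaptors were all negative (median -0.16), as were 5 of the 6 genes of the group of cathepsins with Cst7 (median -0.27) and 8 of the 10 secreted factors (median -0.28). Members of the program share cells and libraries, so these counts are no independent evidence.

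The size of this lean over both sexes moved with 3 libraries of the male rapamycin group. Females alone, whose contrast holds none of them, also had 27 of 34 members negative (median -0.17, but -0.05 in batch 1 alone). Without the library labelled male rapamycin 4, 30 of 34 members were negative, the median was -0.38, Tyrobp was at -0.37 and Ccl6 at -0.67 (neither called), and 7 members were called against 9.44% of all genes. Fth1 was again higher, and Lgals3bp (log2 fold change -1.08, adjusted p = 0.0222), Clec7a (-1.15, adjusted p = 0.0277), Itgax (-1.02, adjusted p = 0.0287), Ctsd (-0.45, adjusted p = 0.0418), Cst7 (-1.01, adjusted p = 0.0431) and Lyz2 (-0.66, adjusted p = 0.0445) were lower. Without male rapamycin 2 and 3, in contrast, 16 of 34 members were negative and the median was 0.00. Only Fth1 was called there, against 9.82% of all genes. The log2 fold change in that fit was -0.34 for Clec7a, -0.24 for Cst7 and -0.49 for Itgax. With the exon length slope as a term 31 of 34 were negative and with the mitochondrial share 28. No member was called in either fit, but these fits called 0% of all genes. In batch 1 alone, which leaves out the doubtful library, 27 of 34 were negative with a median of -0.26. Lgals3bp was called there, against 7.45% of all genes. The plot of diet differences shows these shifts for each gene.

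**Figure D3:**
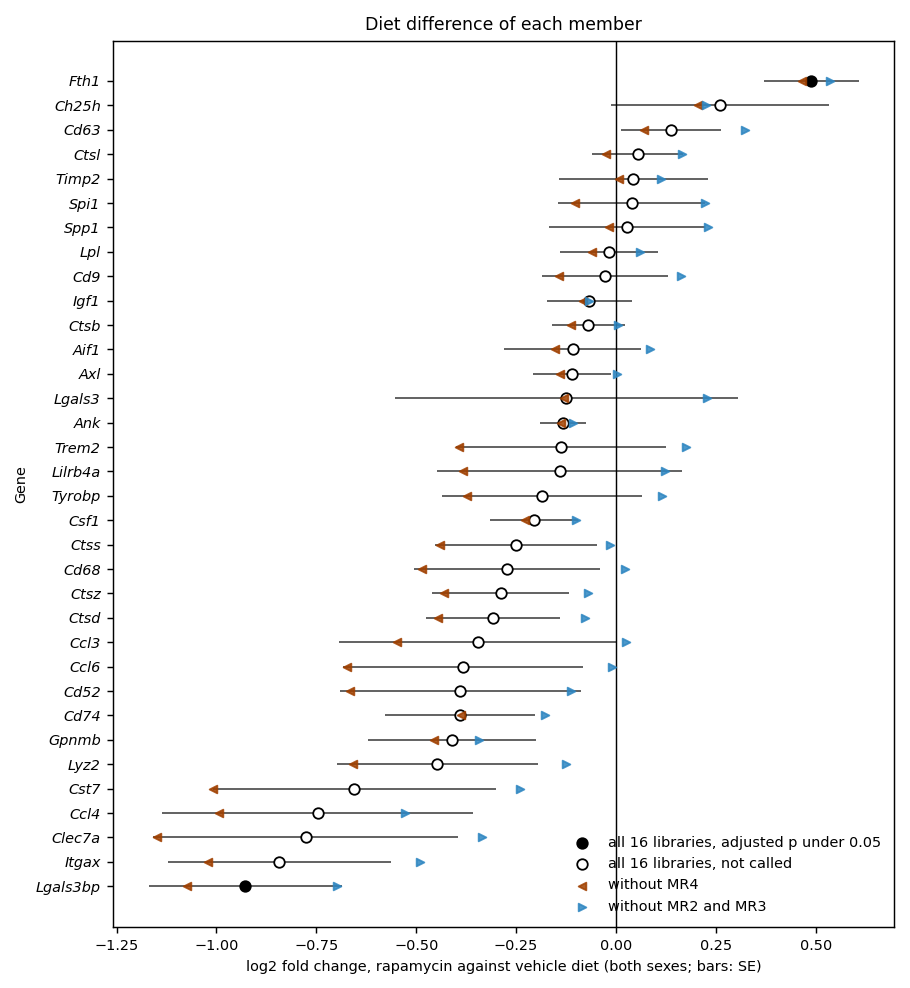
Log2 fold change of each member, rapamycin against vehicle over both sexes, with its standard error, and the same value without the library labelled male rapamycin 4 (left-pointing triangles) and without male rapamycin 2 and 3 (right-pointing triangles). Fth1 and Lgals3bp passed an adjusted p of 0.05 with all libraries, and leaving out male rapamycin 2 and 3 moved the median from -0.16 to 0.00.

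**Figure D4:**
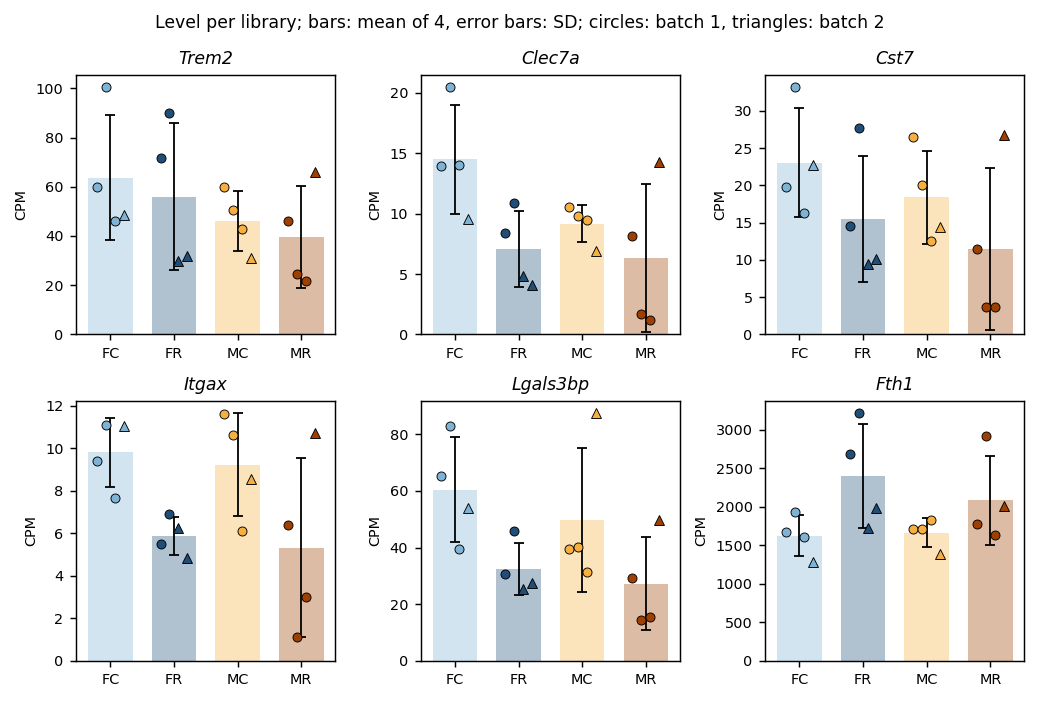
CPM of 6 members in each library by group, with bars for the mean of 4 libraries and error bars for the SD, circles for batch 1 and triangles for batch 2. Itgax in the 4 female rapamycin libraries (4.83 to 6.91 CPM) lies below the 4 female vehicle libraries (7.67 to 11.1 CPM), and the triangle of the male rapamycin group is the doubtful library.

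The study asked whether the sexes respond differently, so each sex was also tested alone. No member was called in females (0 of 34, against 0.0121% of all genes) or in males (0 of 34, against 0% of all genes) by edgeR. At an unadjusted p under 0.05 there were 2 members in females and 3 in males, where 3818 and 1990 of all 16553 genes were. DESeq2 called 1 (Fth1, higher) in females, against 9.08% of all genes, and 0 in males, against 0.163%. The log2 fold change of Lgals3bp was -0.99 (SE 0.35) in females and -0.87 (SE 0.35) in males, that of Itgax -0.81 (SE 0.40) and -0.87 (SE 0.40), and that of Clec7a -1.03 (SE 0.53) and -0.50 (SE 0.55). Fth1 had 0.64 (SE 0.17) in females and 0.34 (SE 0.16) in males. The median over the members was -0.17 in females, and ranged from -0.38 without female rapamycin 2 to -0.09 without female vehicle 2 when 1 library was left out. In batch 1 alone the median in females was -0.05. In males it was -0.21, but -0.59 without the library labelled male rapamycin 4 and 0.25 without male rapamycin 2 and 3. The interaction of sex and diet, which tests the difference itself, was called for 0 of 34 members (0% of all genes), and DESeq2 also called 0. At an unadjusted p under 0.05 there were 0 members, where 360 of all 16553 genes were. Cd74 had the smallest p of the members (interaction 0.54, SE 0.37, adjusted p = 0.999 in edgeR). The median interaction over the members was -0.02 with all libraries, 0.42 without the library labelled male rapamycin 4 and -0.49 without male rapamycin 2 and 3, so its sign turned with these libraries.

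Among vehicle-fed mice, females lay above males for most members, without a call. Of the 34 members 27 had a positive log2 difference, female minus male, with a median of 0.28 against 0.00 over all genes. By edgeR (0.0121% of all genes) and by DESeq2 (0.0544%) 0 were called. In edgeR 2 members had an unadjusted p under 0.05, where 587 of all 16553 genes had. The 2 members were Lpl (0.54, SE 0.17) and Spi1 (0.58, SE 0.26), each with an adjusted p of 0.999. Without female vehicle 2 the median was 0.10. The homeostatic genes (12 of 12 positive, median 0.43) and the pan-microglial genes (10 of 10 positive, median 0.41) lay the same way, so the direction was not particular to the members. Spi1 encodes PU.1, the transcription factor that microglia depend on, and was at 8.94, 12.05, 6.91 and 6.73 CPM in female vehicle mice and at 6.66, 7.61, 4.78 and 4.08 CPM in male vehicle mice. It was at 9.34, 10.6, 5.48 and 6.17 CPM in female rapamycin mice and at 6.64, 4.74, 4.89 and 8.70 CPM in the male rapamycin libraries, so the sexes overlapped on both diets. Over both diets, with sex as labelled, 30 of 34 members were positive (median 0.27) and 0 were called (0.0302% of all genes). An unadjusted p under 0.05 was seen for 992 of all 16553 genes and for 4 members: Lpl, Spp1, Aif1 and Spi1. Spp1 was the member of these that was lower in females (-0.53, SE 0.19). The median was 0.41 without the doubtful library and 0.10 without male rapamycin 2 and 3, with 0 members called in both fits.

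To relate the members to the microglial transcripts of a library, its microglial level was taken as the mean log2 CPM of 12 homeostatic genes, none of them a member. Microglia that meet amyloid lower such genes, so the level can mix the amount of microglia with their state. The level was lowest in male rapamycin 2 (-0.68) and 3 (-0.54) and highest in female vehicle 2 (0.54), on a scale centred at 0, and its mean was 0.13 ± 0.28 with vehicle and -0.13 ± 0.33 with rapamycin (SD, n = 8). The core index, the mean log2 CPM of Cst7, Clec7a and Itgax, spanned more: -2.16 in male rapamycin 2, -1.87 in male rapamycin 3, -0.62 to 0.81 in the other rapamycin libraries and -0.01 to 1.11 with vehicle. The plot of one against the other shows male rapamycin 2 and 3 well apart from the rest in both.

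**Figure D5:**
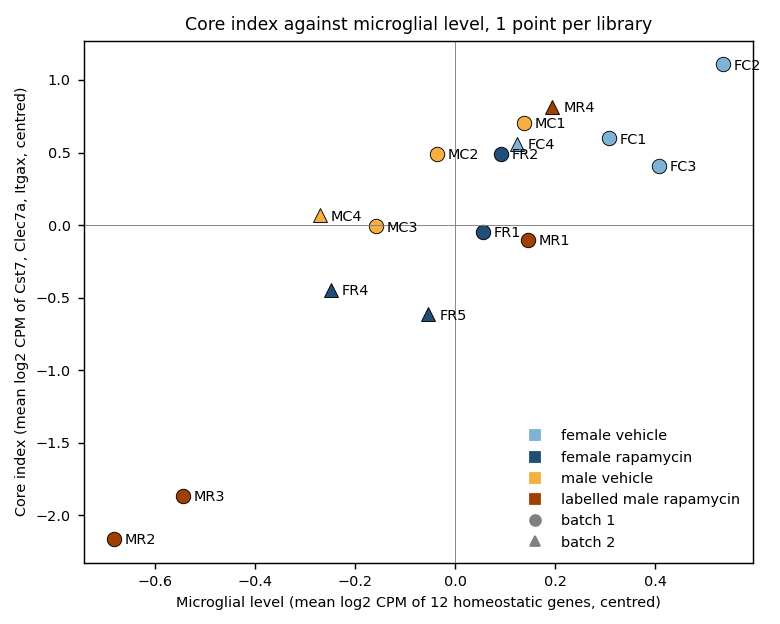
Core index against microglial level, both in log2 units centred at 0, with 1 point per library, coloured by group and shaped by batch. Male rapamycin 2 and 3 lie apart at the lower left, female vehicle 2 has the highest value of both, and the library labelled male rapamycin 4 lies among the higher vehicle libraries.

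With sex, batch and diet in the model, 32 of 34 members rose with the microglial level on their fitted slope and 9 were called (26.5%), all with positive slopes, against 0.272% of all genes outside the level. The called members were Clec7a (slope 2.89 log2 units per log2 unit of level, SE 0.41), Cst7 (2.51, SE 0.48), Ccl6 (2.10, SE 0.42), Itgax (1.92, SE 0.40), Lyz2 (1.84, SE 0.28), Trem2 (1.78, SE 0.35), Cd68 (1.60, SE 0.30), Ctss (1.38, SE 0.25) and Ctsd (1.21, SE 0.20). A slope of 1 would be that of a gene that moves in step with the level, and the median slope over the members was 1.12. Fth1 (-0.05, SE 0.25) had 1 of the 2 negative slopes. These calls came from few libraries: without the library labelled male rapamycin 4, without male rapamycin 2 and 3 together, or in batch 1 alone, 0 members were called, although the Clec7a slope was still 2.204 (SE 0.41) without male rapamycin 2 and 3. Those fits called 0.00593%, 0.00575% and 0.018% of all genes, those of the level included. The calls numbered 3 without female vehicle 2 (0.154% of all genes), male rapamycin 2 (0.118%) or male rapamycin 3 (0.154%). They numbered 5 without female vehicle 4 (0.221%) or male vehicle 1 (0.213%). With 10 pan-microglial genes (the complement genes C1qa, C1qb and C1qc, Ptprc and others) as the level instead, 16 were called, against 0.387% of all genes.

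The other 31 members were also related to the core index. All 31 had a positive slope, with a median of 0.37 against 0.00 over all genes, and 12 were called (38.7%) against 0.393% of all genes outside the index with a positive slope. The largest called slopes were those of Ccl6 (0.86, SE 0.09), Trem2 (0.73, SE 0.08), Lyz2 (0.70, SE 0.07), Cd52 (0.70, SE 0.15), Tyrobp (0.67, SE 0.09) and Cd68 (0.65, SE 0.07). Ctss, Ctsd, Ctsz, Spi1, Cd9 and Cd63 were the others called. Trem2, Lyz2, Ccl6, Cd68 and Ctsd kept their calls in all 16 fits that left out 1 library. Without male rapamycin 2 and 3 there were 7 called, among them Trem2 (0.96, SE 0.12, adjusted p = 0.00406), whereas without the library labelled male rapamycin 4 there were 5 and in batch 1 alone 0. The shares of all genes called in these fits, those of the index included, were 0.092%, 0.083% and 0.00601%. Genes outside the list followed the index too, with 6 of the 12 homeostatic and 7 of the 10 pan-microglial genes called, all with positive slopes. Members and index share libraries and their composition, so a slope describes joint variation and not an order of events.

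With the microglial level added to the main diet model, the lean towards lower values was no longer seen, although this depended on the other terms. The median over the members was 0.02 with the pan-microglial genes as the level. It was -0.30 with the exon length slope as a further term and -0.13 with the mitochondrial share. In the main model at equal level 14 of 34 members were negative, with a median of 0.04, and 1 was called (Fth1, 0.48, SE 0.14, adjusted p = 0.0489), against 6.19% of all genes. Lgals3bp (-0.68, SE 0.22, adjusted p = 0.0677) and Itgax (-0.48, SE 0.20, adjusted p = 0.144) stayed the most negative, Clec7a was at -0.32 (SE 0.21) and Cst7 at -0.21 (SE 0.25), and Trem2 was at 0.22 (SE 0.19). The Fth1 call was lost in 12 of the 16 fits that left out 1 library. Diet and level were not independent in these libraries, so the terms cannot be fully told apart.

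Because the study stained the CD68 and IBA1 proteins of microglia, the ratio of their transcripts, Cd68 to Aif1, was compared as a single value per library. Aif1, which encodes IBA1, was at 9.19, 8.71, 7.02 and 5.29 CPM in female vehicle mice and at 10.6, 7.29, 4.37 and 7.198 CPM in female rapamycin mice, at 8.56, 6.26, 5.48 and 4.47 CPM in male vehicle mice and at 6.01, 5.395, 3.198 and 5.20 CPM in the male rapamycin libraries. The log2 ratio was 1.94 ± 0.29 in females given vehicle and 1.63 ± 0.44 in those given rapamycin (SD, n = 4). In males it was 1.85 ± 0.16 with vehicle and 1.76 ± 0.70 with rapamycin (SD, n = 4). Its lowest values were those of male rapamycin 2 (0.85) and female rapamycin 5 (1.00), and its highest that of the library labelled male rapamycin 4 (2.56). Rapamycin against vehicle differed by -0.23 over both sexes (two-sided exact permutation within sex and batch, 1200 assignments, p = 0.302), by -0.29 in females (30 assignments, exact permutation p = 0.433) and by -0.10 in males (40 assignments, exact permutation p = 0.75). None of these tests reached a p of 0.05, and the rapamycin libraries alone had an SD of 0.55 (n = 8). A single assignment is a share of 0.000833 over both sexes, 0.0333 in females and 0.025 in males. In males the diets were balanced within each batch, so each assignment had a mirror image with the opposite difference. The two-sided p in males could therefore not fall under 0.05, whatever the values. Bulk transcript ratios are also not stained areas.

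A fixed list of 20 further genes of the plaque response, none a member, was read beside the members. With diet, 1 was called higher (Fabp5, a fatty acid-binding protein, 0.43, SE 0.10) and 1 lower (Mpeg1, a macrophage pore-forming protein, -0.71, SE 0.23), 14 of 20 were negative, and the median was -0.14. The same test called 13.3% of all genes, so these calls do not set the list apart from genes at large. On the core index 7 of 20 were called, all with positive slopes, against 0.393% of all genes outside the index. They included Mpeg1 (0.63, SE 0.07), Ly86 (0.61, SE 0.09), Tlr2 (0.63, SE 0.12) and Fcer1g (0.48, SE 0.09). The 12 homeostatic genes had a median log2 fold change with diet of -0.22, with 11 of 12 negative and 1 called (Fcrls, -0.64, SE 0.17), against the same 13.3% of all genes. Markers of other myeloid cells were low: 8 border macrophage genes summed to 16.4 to 59.2 CPM, mostly higher in batch 2 (31.5 to 59.2 CPM) than in batch 1 (16.4 to 34.4 CPM), and 6 monocyte and neutrophil genes to 0.391 to 1.75 CPM except for 11.7 CPM in male rapamycin 2. The 12 homeostatic genes summed to 346 to 856 CPM, so microglia were plainly represented in every library. Markers of some cells outside the myeloid lineage differed between diets too. All 8 choroid plexus genes were negative over both sexes (median log2 fold change -1.83), 3 of them called lower, against 6.86% of all genes. Male vehicle 4 held by far the most of these transcripts (1961 CPM). All 7 oligodendrocyte genes were positive in females (median 0.46, 0 called), but 5 of 7 were negative in males (median -0.06, 0 called). The part of these cells in the members' levels, Lgals3bp included, was not tested.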

How the data were processed

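Cortical poly(A) RNA was sequenced as 150 bp paired-end reads. Per the study's methods the authors used FastQC 0.11.9, Trimmomatic 0.39, HISAT2 2.2.1 at its defaults on GRCm38/mm10, and featureCounts 2.0.3 on the Ensembl annotation. The authors deposited raw counts of read pairs per gene, not normalized, counted without strand, with pairs matching several places or genes left out. The submitters' notes also name Trim Galore. The tables per group repeat these counts, with 0 differing cells.

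Counts were scaled with TMM factors and tested in R 4.3.3 with edgeR 4.0.16 (quasi-likelihood test, filterByExpr with a minimum count of 10, 16553 genes) with the terms sex, batch and treatment, or the 4 groups and batch for single sexes, vehicle-fed mice and the interaction. A gene was called at a Benjamini-Hochberg adjusted p under 0.05 over all genes tested. The microglial level and core index are mean log2 CPM values (prior count 2) added as terms. DESeq2 1.42.0, other filters, terms and size factors, and leaving out each library, were alternatives. The tests were tried on simulated data. Total counts per library ranged from 16393501 to 20593089. Where the labels do not say that libraries come from separate mice, p-values measure the spread between libraries.

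The text gives all 34 members, naming those called with diet or between vehicle-fed sexes, 8 fixed members (Trem2, Tyrobp, Cst7, Clec7a, Itgax, Cd68, Aif1 and Spi1) and the 10 with the lowest p for diet. The members and lists were chosen with earlier results of these data known. Replicate numbers were not taken to pair libraries, since not every correlation of same-numbered libraries was over 0.1: after removal of group means they ranged from -0.16 to 0.67, and with batch also removed from -0.43 to 0.37. Exon overlaps are from GENCODE vM21, and promoters from RefSeq. Figures were drawn with Python 3.11.15 and matplotlib 3.10.9.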

Additional observations from a re-analysis of the deposited data

Results flagged for a closer look

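Dixon's test on groups of 4 libraries marked 3 of 136 combinations of a member and a group, where chance marks about 1 in 20. Ch25h was at 0.615 CPM in male vehicle 4, against 1.13 to 1.27 CPM in the other male vehicle libraries. Igf1 was at 6.17 CPM in female rapamycin 5, against 10.4 to 11.2 CPM in the other female rapamycin libraries. Cd74 was at 6.06 CPM in female vehicle 1, against 10.8 to 11.4 CPM in the other female vehicle libraries. The test did not mark male rapamycin 2 and 3, since a pair of low libraries in a group of 4 leaves no single gap.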

How the results depend on the processing

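Without a filter on low counts 6 members were called with diet over both sexes, 6 in females, 3 in males, 2 between vehicle-fed sexes and 1 between sexes over both diets. The shares of all genes called in these comparisons were 8.68%, 5.55%, 1.74%, 0.476% and 0.374%. The diet count over both sexes was 0 with no batch term (0.858% of all genes), with the mitochondrial share (0%) or with the exon length slope as a term (0%). It was 1 in batch 1 alone (7.45% of all genes), without male rapamycin 2 and 3 (9.82%, chosen after seeing the data) or with the 1.5-fold threshold (2.26%). In females it was 1 with DESeq2 (9.08% of all genes), in batch 1 alone (7.75%) and without male rapamycin 2 and 3 (3.03%). Fth1 turned from 0.49 to -0.0237 with the exon length slope as a term. On the microglial level 15 were called with DESeq2 (0.755% of all genes, those of the level included), 5 with no batch term (0.181%) and 16 with pan-microglial genes as the level (0.387%). None was called in batch 1 alone (0.018% of all genes) or without male rapamycin 2 and 3 (0.00575%). On the core index 3 were called with no batch term (0.163% of all genes, those of the index included), 0 in batch 1 alone (0.00601%) and 7 without male rapamycin 2 and 3 (0.092%). At equal level 3 were called with DESeq2 (13.2% of all genes) or the pan-microglial level (14.2%), and 2 without male rapamycin 2 and 3 (8.49%). None was called with RLE size factors (6.42% of all genes) or no filter (2.64%). The same held with no batch term, batch 1 alone, the mitochondrial share or the exon length slope, where 0% of all genes were called. Leaving out 1 library gave 1 to 7 calls with diet over both sexes, 0 to 1 in females, 0 to 13 on the microglial level, 5 to 13 on the core index and 0 to 2 at equal level, and 0 in males, the interaction and both sex comparisons. The Cd68 to Aif1 difference ranged from -0.34 to 0.17 in males, being positive without male vehicle 3 or male rapamycin 2, and from -0.34 to -0.09 over both sexes and -0.44 to -0.07 in females. The causes of these shifts were not tested beyond the terms named. With the replicate number as a block, although the numbers were not shown to pair the libraries, 2 members were called with diet, 4 on the microglial level, 9 on the core index and 0 at equal level. The shares of all genes were 7.84%, 0.205%, 0.236% and 0.0121%. Members at few read pairs, such as Lgals3 and Ccl4, are limited by depth.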
